A study of Mus musculus with 20 samples.

Results

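The comparison described here sets livers of mice given glucagon and T3 joined in 1 molecule (the hybrid) against livers of mice given glucagon alone, 8 libraries of the 20 in the series and 4 in each group. Libraries were taken by their treatment label, Cp for the hybrid and Gluc for glucagon. The label Cp is not spelled out, and it was read as the hybrid because the other 4 labels account for the other 4 arms of the study. Every library came from 1 liver of a male mouse that ate a western diet and received its treatment each day for 16 days. The other groups, also of 4 mice each, received glucagon and T3 together (called combination), T3 alone, or the control treatment. The sources used here give no dose, mouse strain, age or time from last treatment to tissue collection, so the amount of glucagon activity given to the hybrid and glucagon mice cannot be set side by side.

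Glucagon is the pancreatic hormone of fasting. Its receptor on hepatocytes raises cyclic AMP, which activates protein kinase A and the transcription factor CREB, and genes of glucose production and amino acid breakdown are then transcribed. T3, triiodothyronine, is the active thyroid hormone, and it acts in liver mainly through the nuclear receptor encoded by Thrb on genes of lipid, cholesterol and mitochondrial metabolism. The hybrid carries both hormones on one molecule. Setting it against glucagon alone shows how a liver exposed to the joined molecule differed from one exposed to the peptide hormone only.

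Among the genes described below are Nr4a1, Nr4a2, Nr4a3 and Ppargc1a, cyclic AMP targets that themselves regulate other genes. Whether they had a part in the other changes was not tested. The bases just before the transcription start of these 4 genes are shown because CREB binds the half-site CGTCA or its reverse complement TGACG. The sequences are those of RefSeq on GRCm38.p6, run 5′ to 3′ on the strand of the gene, hold none of the exons that GENCODE M21 gives that gene, and have every half-site in capitals. For Nr4a1, GENCODE M21 also places a gene start further upstream, so its window lies inside the gene there. Nr4a1, Nr4a2 and Nr4a3 encode orphan nuclear receptors of the immediate early kind, and Ppargc1a encodes PGC-1alpha, a coactivator of glucose production and mitochondrial genes.
Nr4a1, chr15:101266596-101266845, plus strand: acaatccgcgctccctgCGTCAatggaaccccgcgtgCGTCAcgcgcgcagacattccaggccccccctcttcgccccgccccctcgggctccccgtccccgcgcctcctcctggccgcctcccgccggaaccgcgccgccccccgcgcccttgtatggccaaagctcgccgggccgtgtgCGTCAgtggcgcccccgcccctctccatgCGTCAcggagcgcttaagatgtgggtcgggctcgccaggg
Nr4a2, chr2:57124004-57124253, minus strand: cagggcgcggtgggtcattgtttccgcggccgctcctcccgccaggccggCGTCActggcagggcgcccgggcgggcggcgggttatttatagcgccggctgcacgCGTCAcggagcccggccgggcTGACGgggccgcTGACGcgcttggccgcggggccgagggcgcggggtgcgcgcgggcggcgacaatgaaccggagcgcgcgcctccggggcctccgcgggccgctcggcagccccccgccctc
Nr4a3, chr4:48045055-48045152, plus strand: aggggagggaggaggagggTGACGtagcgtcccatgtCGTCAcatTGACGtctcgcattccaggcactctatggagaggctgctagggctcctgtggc
Ppargc1a, chr5:51567727-51567975, minus strand: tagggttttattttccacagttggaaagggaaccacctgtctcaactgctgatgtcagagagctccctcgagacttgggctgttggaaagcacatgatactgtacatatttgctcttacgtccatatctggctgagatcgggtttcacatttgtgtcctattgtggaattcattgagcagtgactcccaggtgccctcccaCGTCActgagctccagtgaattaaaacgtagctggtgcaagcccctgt
In the full windows of 250 bases before the RefSeq start, Nr4a1, Nr4a2 and Nr4a3 each held 4 half-sites and Ppargc1a held 1. At least 1 half-site on either strand stood in 17.8% of all 32851 promoters of this length in the table and in 25.5% of those of the genes tested. At least 4 stood in 0.137% of all promoters, in 0.312% of those of the genes tested and in 1.01% of those of genes lower in hybrid livers. The share with a half-site was 27.6% for genes lower in hybrid livers and 18.7% for genes higher in hybrid livers. Of the 21 promoters found for 16 of the cyclic AMP targets tested, 13 held one (61.9%). These matches describe letters in a window and were not tested as binding sites.

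Levels are given below as normalised CPM (counts scaled to a common library size, with TMM factors), and changes as log2 of hybrid over glucagon with their standard error (SE), so that a positive value means higher in hybrid livers. A gene was called where edgeR's quasi-likelihood test over all 12907 genes tested gave an adjusted p below 0.05, and the n is 4 livers a group throughout. Total counts were 8791923 to 17445035 in hybrid libraries and 11988039 to 19931718 in glucagon libraries. Alb, which encodes albumin, was the most abundant gene in every library, and the summed level of 10 hepatocyte markers was 105109 to 135442 CPM in hybrid and 145338 to 200350.0 CPM in glucagon livers. In RNA of whole liver, fewer cells of a type and less RNA per cell cannot be told apart. Of the 10 hepatocyte markers 3 fell and 0 rose, so that 30% were called, near the 25.2% of all genes. Of 14 periportal markers 5 fell and 2 rose (50% called), or 3 and 1 without glucagon 3 and hybrid 4. The first principal component of the 8 libraries held 54.2% of their variance and separated the groups. The second held 18.7%, and glucagon 3 stood at -53.1 and hybrid 4 at -34.2 on it. These same libraries held the most skeletal muscle RNA: the summed level of 20 muscle markers was 28.6, 26.9, 36.8 and 852 CPM in hybrid 1 to 4 and 39.4, 30.6, 3713 and 88.8 CPM in glucagon 1 to 4. Of 19 muscle markers tested 3 were lower in hybrid livers, or 15.8%, below the 25.2% of all genes. The count was 0 without glucagon 3, without glucagon 3 and hybrid 4 or with replicate number as a block. It was 1 without hybrid 1, 2 or 3, and 7 without hybrid 4. Where leaving out both libraries changed a result, the value without them is given.

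Hybrid livers differed from glucagon livers in 3255 of 12907 genes, or 25.2%. Of these, 1751 were higher in hybrid livers (13.6% of genes tested) and 1504 were lower (11.7%). The median size of a called change was log2 1.04, and 493 called genes changed by more than log2 2, 292 of them higher and 201 lower. The groups did not overlap in 2984 of the called genes, against 33% of all genes tested. In 3162 called genes the hybrid library was on the same side of the glucagon library in all 4 sequencing lanes. The share of all genes with this trait was not worked out. The call itself selects for it, so it adds nothing to the test. Without glucagon 3 and hybrid 4, 2228 genes were called. Alb took 7.49 to 10.5% of the counts in hybrid and 11.2 to 17.2% in glucagon libraries. With library size alone in place of TMM factors, the median over all genes moved to log2 0.44, and 5408 genes were called, 4765 higher and 643 lower. Changes below are relative to the TMM scale, on which the median of all genes was 0.00, and the counts with library size alone are given for the groups of genes that it moved. For every called gene given with values below, except Saa2 and Socs3, the hybrid and glucagon livers did not overlap.

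**Figure D1:**
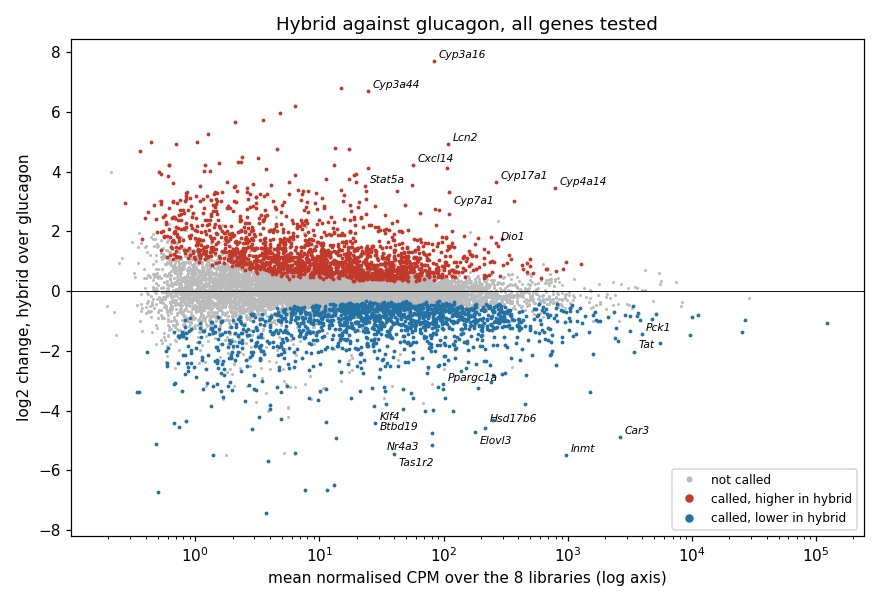
Log2 change of hybrid over glucagon (vertical axis) against the mean normalised CPM of the 8 libraries (log axis) for the 12907 genes tested, with called genes in colour. Of the 3255 called genes, 1751 lie above 0 and 1504 below it, and Inmt, Nr4a3 and Car3 are labelled among the lowest, Cyp3a16 and Lcn2 among the highest.

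The early targets of cyclic AMP and CREB were lower in hybrid livers, with 14 of 21 members tested down, 0 up and a median log2 change of -1.86, the lowest of the 25 gene lists. Nr4a3 had 3.81, 5.42, 5.14 and 3.17 CPM in hybrid livers, against 135, 193, 169.7 and 137 CPM in glucagon livers. The highest hybrid liver lay far below the lowest glucagon liver (log2 -5.17 ± 0.35, adjusted p = 4.85e-09). Nr4a2 had 5.22, 5.37, 7.13 and 5.41 CPM in hybrid livers and 117, 114, 67.5 and 57.2 CPM in glucagon livers (log2 -3.94 ± 0.25, adjusted p = 2.60e-09). Nr4a1 had 6.91, 13.4, 5.503 and 7.19 CPM in hybrid livers and 199.6, 153, 107 and 73.5 CPM in glucagon livers (log2 -4.00 ± 0.37, adjusted p = 2.67e-07). The 3 receptor genes, whose promoters are shown above, moved the same way in every liver.

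Ppargc1a reached 18, 25.5, 19.5 and 18.7 CPM in hybrid livers, against 200.2, 190.1, 166 and 156 CPM in glucagon livers (log2 -3.12 ± 0.19, adjusted p = 1.81e-09). The control livers had 13.5, 11.2, 9.41 and 8.97 CPM, so the hybrid livers lay above the controls and far below the glucagon livers. Pde4d, a phosphodiesterase that breaks down cyclic AMP and is itself raised by it, had 7.76 to 14.1 CPM in hybrid and 50.02 to 71.3 CPM in glucagon livers (log2 -2.51 ± 0.22, adjusted p = 1.28e-07). Nr4a3 was between 0.214 and 0.628 CPM in control livers, few counts a library, so the hybrid livers stood above the controls for this gene as well. With library size alone, 13 members fell and 1 rose.

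In the chain that carries the signal from the receptor to CREB, 1 of 27 members tested rose and 3 fell, with a median of log2 0.05. The share called was 14.8%, against 25.2% of all genes, although 12 rose and 1 fell with library size alone. Without glucagon 3 and hybrid 4, 1 rose and 1 fell. Gcgr, the glucagon receptor itself, had 242, 145, 225 and 245 CPM in hybrid and 295, 274, 248 and 308 CPM in glucagon livers, which did not overlap, but was not called (log2 -0.39 ± 0.22, adjusted p = 0.219). Adcy7, an adenylyl cyclase, had 13.5 to 19.96 CPM in hybrid and 3.88 to 7.54 CPM in glucagon livers (log2 1.53 ± 0.31, adjusted p = 0.00110). Its relatives Adcy5 (log2 -1.46 ± 0.34, adjusted p = 0.00334) and Adcy9 (log2 -0.72 ± 0.20, adjusted p = 0.0128) fell, and Adcy5 had 0.712 to 1.12 CPM in hybrid and 1.25 to 3.59 CPM in glucagon livers. Rapgef3, the cyclic AMP sensor EPAC1, fell by a small amount (log2 -0.62 ± 0.21, adjusted p = 0.0389), and its exons overlap those of antisense transcripts. The calls of Adcy9 and Rapgef3 were both lost with library size alone (adjusted p = 0.229 and 0.539) and without glucagon 3 and hybrid 4 (0.067 and 0.183). Rapgef3 was also not called with replicate number as a block (adjusted p = 0.0637) or without any 1 of the 8 libraries except glucagon 1 (0.05001 to 0.124).

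**Figure D2:**
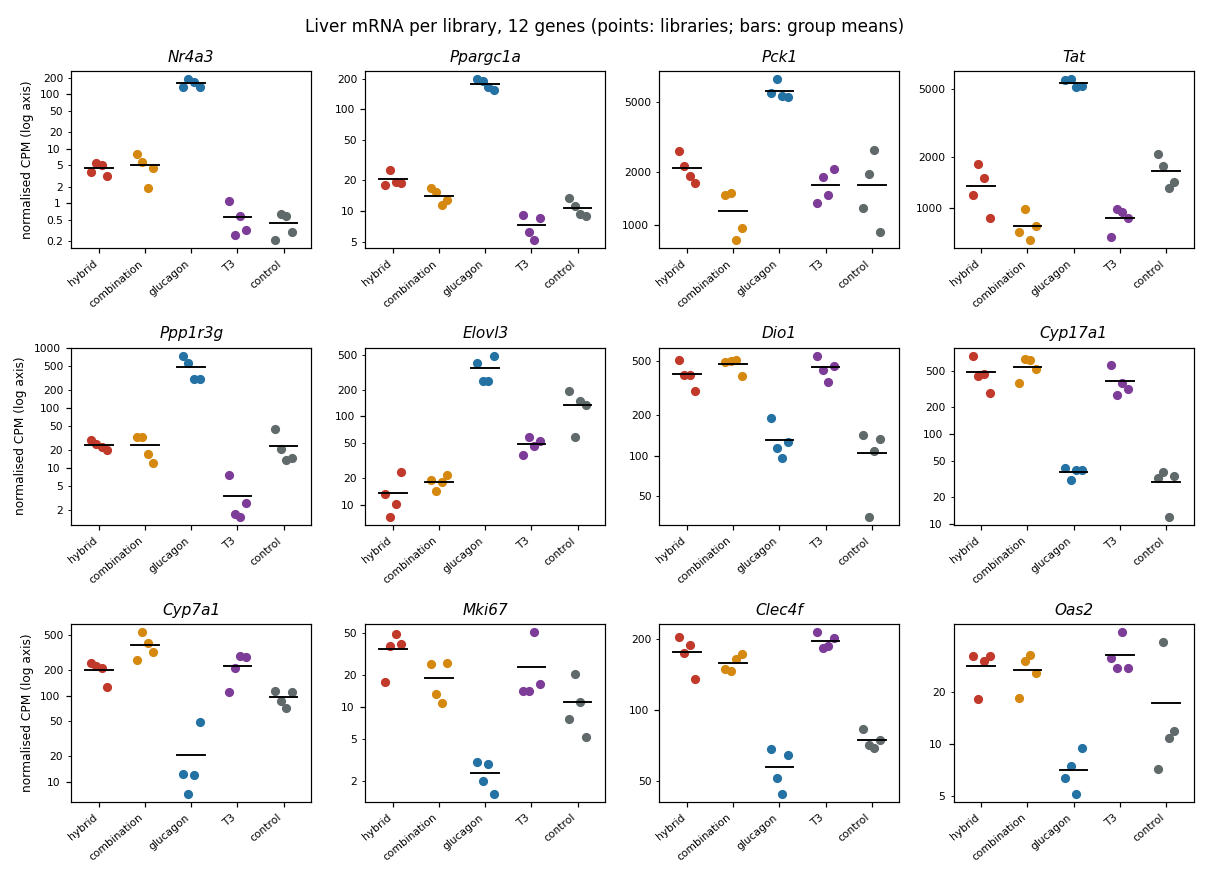
Normalised CPM (log axis) of 12 genes in every library of the 5 groups, with bars at group means. Nr4a3, Ppargc1a, Pck1, Tat, Ppp1r3g and Elovl3 lie lower in the 4 hybrid livers than in the 4 glucagon livers, and Dio1, Cyp17a1, Cyp7a1, Mki67, Clec4f and Oas2 lie higher.

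Genes of glucose production were lower in hybrid livers. Of 22 members tested, 9 fell and 0 rose, with a median of log2 -0.44. Pck1, the enzyme that makes phosphoenolpyruvate from oxaloacetate, had 2635, 2156, 1892 and 1746 CPM in hybrid and 5601, 6757, 5379 and 5314 CPM in glucagon livers (log2 -1.45 ± 0.28, adjusted p = 7.29e-04). G6pc, the phosphatase that releases free glucose, had 1485, 1237, 1196 and 1144 CPM in hybrid and 2572, 1859, 2291 and 1516 CPM in glucagon livers (log2 -0.70 ± 0.22, adjusted p = 0.0247). Fbp1, fructose bisphosphatase, fell as well (log2 -0.95 ± 0.20, adjusted p = 0.00130), as did the monocarboxylate carrier gene Slc16a7 (log2 -1.21 ± 0.35, adjusted p = 0.0137). The count rested on single libraries: 3 members fell without hybrid 2, without hybrid 4, or without glucagon 3 and hybrid 4, 5 without glucagon 1 or without hybrid 3, and with library size alone 4 fell and 3 rose. G6pc was not called without glucagon 1, glucagon 3, hybrid 2, hybrid 3 or hybrid 4 (adjusted p = 0.0600 to 0.0911), without glucagon 3 and hybrid 4 (0.131) or with library size alone (0.246). Slc16a7 was not called without hybrid 2 (0.0533), hybrid 4 (0.0504) or glucagon 3 and hybrid 4 (0.127).

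Glycogen and glycolysis genes were also lower, with 11 of 23 members down, 0 up and a median of log2 -0.50. Ppp1r3g, a subunit that directs protein phosphatase 1 to glycogen, had 29.2, 24.6, 22.7 and 19.9 CPM in hybrid and 747, 566, 306 and 299 CPM in glucagon livers (log2 -4.31 ± 0.49, adjusted p = 3.82e-06). The glucagon livers fell into a higher and a lower pair for this gene, and both pairs lay above all hybrid livers. Gys2, liver glycogen synthase, had 89.03 to 125 CPM in hybrid and 218 to 258 CPM in glucagon livers (log2 -1.17 ± 0.19, adjusted p = 1.61e-04). Slc2a2, the glucose carrier GLUT2, had 57.98 to 86.2 CPM in hybrid and 185 to 211 CPM in glucagon livers (log2 -1.43 ± 0.23, adjusted p = 1.36e-04). With library size alone, 8 members fell and 2 rose.

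Of 45 genes of amino acid breakdown and the urea cycle, 12 fell and 2 rose, so that 31.1% were called, against 25.2% of all genes. The median was log2 -0.40, and with library size alone 7 fell and 7 rose. Without glucagon 2 or without hybrid 4, 1 rose. Tat, tyrosine aminotransferase, had 1187, 1811, 1495 and 874 CPM in hybrid and 5679, 5758, 5130.1 and 5226 CPM in glucagon livers (log2 -2.02 ± 0.22, adjusted p = 1.95e-06). Agxt2l1, a phospholyase of ethanolamine phosphate, had 38.8 to 74.3 CPM in hybrid and 372 to 507 CPM in glucagon livers (log2 -3.03 ± 0.39, adjusted p = 1.27e-05). Agxt, alanine-glyoxylate aminotransferase, had 845 to 1528 CPM in hybrid livers, 3129 to 4512 CPM in glucagon livers and 290 to 434 CPM in controls (log2 -1.58 ± 0.29, adjusted p = 4.39e-04). Afmid, which acts in tryptophan breakdown and overlaps exons of Tk1 on the other strand, fell as well (log2 -1.50 ± 0.29, adjusted p = 6.45e-04). Of 27 amino acid carriers, 6 rose and 2 fell (29.6% called, against 25.2% of all genes), with a median of log2 0.15. The 2 that fell were Slc38a2, a carrier of small neutral amino acids, with 128, 174, 145 and 117 CPM in hybrid and 818, 751, 622 and 578 CPM in glucagon livers (log2 -2.30 ± 0.20, adjusted p = 1.42e-07), and Slc7a2, a carrier of cationic amino acids (log2 -1.29 ± 0.19, adjusted p = 4.87e-05). Slc7a7 (log2 1.22 ± 0.26, adjusted p = 0.00171) and Slc38a1 (log2 1.13 ± 0.26, adjusted p = 0.00366) were among those that rose, with 10.01 to 15.99 CPM and 4.24 to 6.63 CPM in hybrid and 4.54 to 6.01 CPM and 1.91 to 3.81 CPM in glucagon livers, and Slc7a7 overlaps Oxa1l on the other strand. Without glucagon 3 and hybrid 4, 2 carriers rose.

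Known T3 targets gave a mixed picture in hybrid against glucagon livers. Of 21 members tested, 7 rose and 4 fell, with a median of log2 0.22, while in T3 over control livers 11 rose and 1 fell. The 1 that fell there was not called without control 1, T3 2 or T3 3, without glucagon 3 and hybrid 4, or with library size alone. Dio1, the liver deiodinase that is itself a T3 target, had 506, 393, 395 and 301 CPM in hybrid and 189, 115, 95.1 and 127 CPM in glucagon livers (log2 1.60 ± 0.31, adjusted p = 7.32e-04). In T3 livers it had 549, 433, 352 and 461 CPM, so the glucagon livers lay below both groups. Idh3a, a subunit of isocitrate dehydrogenase, had 189, 205, 188 and 169 CPM in hybrid and 46.02, 41.2, 56.2 and 40.97 CPM in glucagon livers (log2 2.03 ± 0.16, adjusted p = 4.21e-08). Cyp17a1, steroid 17-alpha-hydroxylase, had 749.7, 442, 471 and 287 CPM in hybrid and 42.2, 30.8, 40.2 and 40.7 CPM in glucagon livers (log2 3.66 ± 0.35, adjusted p = 4.62e-07). The members that fell included Ppargc1a, given above. Other classical targets were not called: Thrsp, a regulator of fat synthesis, had 2392, 1283, 1925 and 1116 CPM in hybrid and 3444, 1411, 1152 and 1361 CPM in glucagon livers. Me1, malic enzyme, had 127 to 185 CPM in hybrid and 79.4 to 198 CPM in glucagon livers, and Klf9, a transcription factor, had 60.5 to 98.8 CPM in hybrid and 74.5 to 96.5 CPM in glucagon livers, and all 3 overlapped. Adjusted p was 0.895 for Thrsp, 0.661 for Me1 and 0.768 for Klf9. In T3 over control livers these 3 were not called either. They changed there by log2 -0.22 ± 0.56 for Thrsp, 0.17 ± 0.31 for Me1 and -0.26 ± 0.26 for Klf9 (adjusted p = 0.819, 0.739 and 0.52).

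Among thyroid hormone receptors, cofactors, deiodinase and carriers, 3 of 21 rose and 4 fell, and 9 rose and 3 fell with library size alone. Without hybrid 4, with or without glucagon 3, 1 rose. Thrb, the main T3 receptor of liver, had 14.6, 15.2, 12.99 and 12.5 CPM in hybrid and 35.03, 35.96, 29.4 and 21.3 CPM in glucagon livers (log2 -1.14 ± 0.19, adjusted p = 1.92e-04). Thra was not called (log2 -0.24 ± 0.21, adjusted p = 0.428), and it overlaps exons of Nr1d1 on the other strand. The carriers of the hormone in blood were lower: Ttr, transthyretin, had 3252 to 3479.6 CPM in hybrid and 5977 to 6646 CPM in glucagon livers (log2 -0.93 ± 0.19, adjusted p = 0.00125), and Serpina7, thyroxine-binding globulin, had 2.07 to 9.69 CPM in hybrid and 10.7 to 19.2 CPM in glucagon livers (log2 -1.65 ± 0.39, adjusted p = 0.00405). Serpina7 was highest in controls, at 21.9 to 52.9 CPM.

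**Figure D3:**
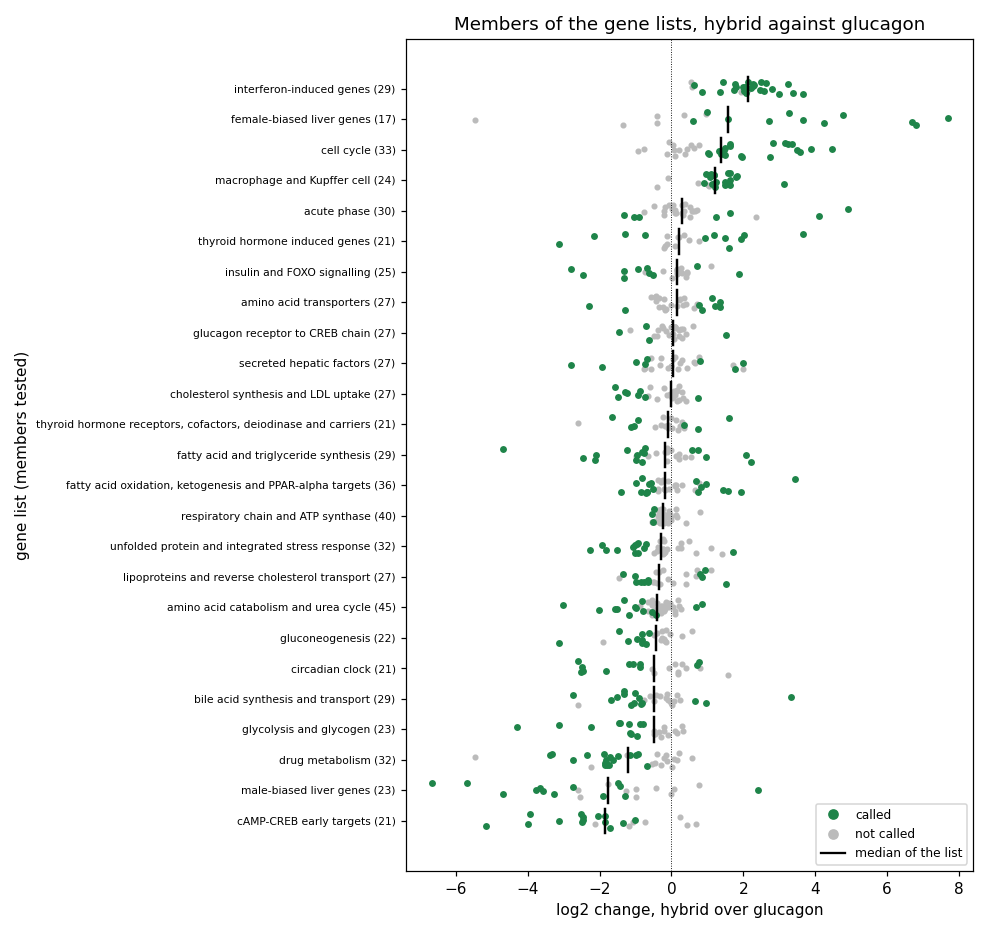
Log2 change of hybrid over glucagon (horizontal axis) for the members of 24 gene lists and of the macrophage markers, with 1 point for each gene, with called genes in green, medians as bars and the number tested in brackets. The cyclic AMP list has its median at -1.86 and the interferon list at 2.12, against 0.00 for all genes.

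Fat metabolism changed in both directions. Of 29 genes of fatty acid and triglyceride synthesis, 11 fell and 5 rose (5 fell and 7 rose with library size alone). Elovl3, an elongase of very long chain fatty acids, had 13.1, 7.28, 10.2 and 23.2 CPM in hybrid and 406, 253, 248 and 486 CPM in glucagon livers (log2 -4.70 ± 0.39, adjusted p = 7.95e-08). Controls, at 57.7 to 194 CPM, lay between the 2 groups, and Elovl3 overlaps Pitx3 on the other strand. Srebf1, the transcription factor SREBP-1, had 318, 155, 320.3 and 202 CPM in hybrid and 1356, 1358, 1365 and 1414 CPM in glucagon livers (log2 -2.46 ± 0.37, adjusted p = 6.95e-05). Lpin1, a phosphatidate phosphatase and PGC-1alpha partner, had 218 to 347 CPM in hybrid and 979 to 1476 CPM in glucagon livers (log2 -2.09 ± 0.28, adjusted p = 2.40e-05). Srebf1 overlaps Rai1 on the other strand. Acly, which makes cytosolic acetyl-CoA, fell (log2 -2.12 ± 0.32, adjusted p = 7.13e-05). Scd1, the stearoyl-CoA desaturase, fell (log2 -0.97 ± 0.34, adjusted p = 0.0399) but was not called with library size alone (adjusted p = 0.117), with replicate number as a block (0.0514), without glucagon 3 and hybrid 4 (0.123), or without glucagon 1, 2 or 4 or hybrid 2, 3 or 4 (0.0680 to 0.125).

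Of 36 genes of fatty acid oxidation, ketone body synthesis and PPAR-alpha, 8 rose and 10 fell, while 11 rose and 2 fell with library size alone. Cyp4a14, a fatty acid omega-hydroxylase and PPAR-alpha target, had 2302, 867, 1799 and 863 CPM in hybrid and 29.5, 49.5, 197 and 260.5 CPM in glucagon livers (log2 3.44 ± 0.54, adjusted p = 1.09e-04). Ppara itself had 644, 553, 666 and 628 CPM in hybrid and 302, 336, 311 and 336 CPM in glucagon livers (log2 0.96 ± 0.21, adjusted p = 0.00212). Cpt1a, the entry step of mitochondrial oxidation, was not called (log2 0.09 ± 0.14, adjusted p = 0.674). Acadm, an acyl-CoA dehydrogenase, fell (log2 -0.98 ± 0.16, adjusted p = 1.67e-04), as did the peroxisomal thiolase Acaa1b (log2 -1.41 ± 0.32, adjusted p = 0.00273), whose exons overlap Dlec1 on the other strand. The count of falling members was 6 without glucagon 1 or hybrid 2 and 4 without glucagon 3 and hybrid 4; 5 rose without glucagon 1. Pdk4, which blocks entry of pyruvate into mitochondria, rose (log2 1.95 ± 0.59, adjusted p = 0.0203) but lost its call without glucagon 1, glucagon 2, glucagon 4 or hybrid 2 (adjusted p = 0.0507 to 0.0640).

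Of 40 members of the respiratory chain and ATP synthase, 3 fell and 0 rose, so that 7.5% were called, against 25.2% of all genes, and the median was log2 -0.24. The 3 were Sdha (log2 -0.51 ± 0.17, adjusted p = 0.0279), Sdhc (log2 -0.49 ± 0.16, adjusted p = 0.0300) and Ndufs7 (log2 -0.55 ± 0.19, adjusted p = 0.0399), subunits of complexes II and I. None of the 3 was called with library size alone, where 6 members rose, without glucagon 1 or without hybrid 2, and with replicate number as a block Sdhc (adjusted p = 0.0677) and Ndufs7 (0.0591) were not called. Without hybrid 4, 0 members fell, and 1 fell without glucagon 2, without hybrid 3 or without glucagon 3 and hybrid 4. In the tricarboxylic acid cycle 5 of 28 rose and 5 fell, against 9 and 1 with library size alone, and Idh3a had the largest change. The 5 that fell became 2 without glucagon 1 or hybrid 4, 3 without glucagon 2 or hybrid 3, 1 without hybrid 2 and 0 without glucagon 3 and hybrid 4 (edgeR), and the 5 that rose became 2 without glucagon 2 and 3 without glucagon 1, glucagon 4 or both glucagon 3 and hybrid 4.

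Cyp7a1, which catalyses the first and rate-limiting step from cholesterol to bile acids, had 241, 223, 208 and 125 CPM in hybrid and 12.3, 7.24, 12 and 48.8 CPM in glucagon livers (log2 3.33 ± 0.47, adjusted p = 4.02e-05). Control livers had 114, 86.4, 72.5 and 109 CPM, so that hybrid livers lay above and glucagon livers below all controls. Of 29 genes of bile acid synthesis and transport, 3 rose and 11 fell. Without glucagon 3 and hybrid 4, 2 rose and 5 fell, without glucagon 2 the 3 became 2, and with library size alone 5 rose and 7 fell. Abcc3, an export pump for bile acids and conjugates, had 17.1 to 22.7 CPM in hybrid and 106 to 167 CPM in glucagon livers (log2 -2.75 ± 0.24, adjusted p = 1.65e-07). Scp2, a peroxisomal thiolase of side chain shortening, fell (log2 -1.67 ± 0.24, adjusted p = 4.80e-05), as did Acox2 of the same pathway (log2 -1.02 ± 0.21, adjusted p = 0.00112).

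Of 27 genes of cholesterol synthesis and uptake, 1 rose and 7 fell, so that 29.6% were called, against 25.2% of all genes. The median was log2 -0.01, and 5 rose and 3 fell with library size alone. Insig1, the retention protein of the SREBP complex, fell (log2 -1.56 ± 0.25, adjusted p = 1.30e-04), and so did Mvk, mevalonate kinase (log2 -1.48 ± 0.30, adjusted p = 0.00120), and Fdft1, squalene synthase (log2 -0.89 ± 0.20, adjusted p = 0.00329), which overlaps Ctsb and lost its call with library size alone (adjusted p = 0.0775). Among lipoprotein genes 4 of 27 rose and 7 fell, or 8 and 3 with library size alone and 2 and 6 without glucagon 3 and hybrid 4. Plin2, the lipid droplet coat protein, had 297 to 470 CPM in hybrid and 109.9 to 229 CPM in glucagon livers (log2 1.51 ± 0.23, adjusted p = 9.85e-05). Apoc1 (log2 -1.35 ± 0.26, adjusted p = 6.93e-04), the cholesterol exporter gene Abca1 (169 to 186 CPM in hybrid and 272 to 436 CPM in glucagon livers, adjusted p = 6.44e-04) and hepatic lipase, Lipc (log2 -1.03 ± 0.21, adjusted p = 0.00146), fell.

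Genes of sex-biased liver expression moved apart in these males. Of 17 female-biased genes tested, 11 rose and 0 fell, with a median of log2 1.58, and of 23 male-biased genes 12 fell and 1 rose, with a median of log2 -1.78; with library size alone 12 female-biased genes rose, 9 male-biased genes fell and 1 rose, and without hybrid 2 no male-biased gene rose. Cyp3a16, a steroid and drug hydroxylase of female liver, had 307, 137, 211 and 7.47 CPM in hybrid and 0.657, 0.905, 1.22 and 0.302 CPM in glucagon livers (log2 7.69 ± 1.16, adjusted p = 7.26e-05), and Cyp3a44 of the same family had 9.61 to 84.99 CPM in hybrid and 0.323 to 0.604 CPM in glucagon livers (log2 6.68 ± 0.93, adjusted p = 3.30e-05). Both ranged widely among hybrid livers, with hybrid 4 the lowest, and the glucagon values stand for few counts, so the size of the fold is uncertain. Abcd2, a peroxisomal fatty acid carrier, rose (log2 2.71 ± 0.43, adjusted p = 1.09e-04). On the male side, Cyp4a12a had 0.0544, 0.110, 0.0902 and 0.373 CPM in hybrid livers, against 20.7, 22.9, 10.2 and 6.34 CPM in glucagon livers, and Cyp4a12b had 0.0544, 0.164, 0 and 0.373 CPM in hybrid livers, against 12.5, 12.6, 1.22 and 3.93 CPM in glucagon livers. Most of the hybrid values are at or under the level of 3 counts a library (0.163 to 0.280 CPM), so no fold is given for either. Keg1 (log2 -3.58 ± 0.34, adjusted p = 4.22e-07) and Gstp1 (log2 -2.74 ± 0.39, adjusted p = 4.39e-05) fell too. Genes of the Cyp3a, Cyp4a, Cyp2c, Cyp2d, Ugt2b, Gst and Mup families have near-identical copies, and how reads were shared among them is not known.

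Drug metabolism genes fell in hybrid livers: 17 of 32 were lower and 0 higher, with a median of log2 -1.21, and 14 fell and 1 rose with library size alone. Aox1, aldehyde oxidase, had 11.6 to 25.8 CPM in hybrid and 79.2 to 90.2 CPM in glucagon livers (log2 -2.36 ± 0.22, adjusted p = 2.88e-07). The epoxide hydrolases Ephx1 (log2 -1.62 ± 0.19, adjusted p = 3.74e-06) and Ephx2 (log2 -1.48 ± 0.21, adjusted p = 4.66e-05) and the glutathione transferase Gstp1 were the others with the smallest p. The pericentral zone is where many of these enzymes are made. Without TMM factors, the summed level of its 12 hepatocyte markers was 3488 to 6594 CPM in hybrid and 7894 to 10719 CPM in glucagon livers. Of these 12, 3 fell and 2 rose (41.7% called, against 25.2% of all genes). None was at 0 in the 8 libraries, and Cyp1a2 and Cyp2e1 stand in both lists. The part of zonation in the drug gene result was not tested.

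Of 21 clock genes, 9 fell and 2 rose, with a median of log2 -0.48, and 7 fell and 7 rose with library size alone. The 2 that rose became 1 with replicate number as a block or without glucagon 2, 3 or 4 or hybrid 2 or 3, and 0 without glucagon 1 or without glucagon 3 and hybrid 4 (edgeR). Per1, a clock gene that cyclic AMP also induces, had 28.2, 20.6, 39.6 and 21.2 CPM in hybrid and 155, 154, 153 and 155 CPM in glucagon livers (log2 -2.50 ± 0.33, adjusted p = 1.74e-05). Per2 had 68.7, 46.3, 85.8 and 89.7 CPM in hybrid and 425, 519, 346 and 324 CPM in glucagon livers (log2 -2.47 ± 0.27, adjusted p = 1.98e-06). Nfil3, a repressor in clock output (log2 -2.53 ± 0.26, adjusted p = 8.44e-07), and Cry2, a core repressor (log2 -1.82 ± 0.21, adjusted p = 3.76e-06), were lower as well. The collection time is not given, so phase and level cannot be told apart.

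Of 32 genes of the unfolded protein and integrated stress responses, 12 fell and 1 rose, though with library size alone 4 fell and 3 rose. The 1 that rose was not called with replicate number as a block, without glucagon 2, 3 or 4 or hybrid 2 or 3, or without glucagon 3 and hybrid 4. Herpud1, which acts in degradation of misfolded proteins, had 142 to 231 CPM in hybrid and 573 to 799 CPM in glucagon livers (log2 -1.93 ± 0.18, adjusted p = 4.22e-07). Chac1, which degrades glutathione (log2 -2.26 ± 0.31, adjusted p = 2.78e-05), Ddit4, an inhibitor of mTOR signalling (log2 -1.83 ± 0.33, adjusted p = 4.47e-04), and Ppp1r15a, which reverses eIF2 phosphorylation (log2 -1.51 ± 0.23, adjusted p = 7.70e-05), fell too. Among insulin and FOXO genes 8 of 25 fell and 2 rose, against 4 and 9 with library size alone, and 1 rose without hybrid 1. Irs2, an insulin receptor substrate and CREB target, had 24.7, 27.8, 24.7 and 35.2 CPM in hybrid and 218, 200.5, 114 and 88.5 CPM in glucagon livers (log2 -2.47 ± 0.44, adjusted p = 4.01e-04). Klf15 (log2 -1.31 ± 0.20, adjusted p = 9.38e-05) and the PI3-kinase subunit gene Pik3r1 (log2 -0.92 ± 0.18, adjusted p = 8.37e-04) fell, and Arrdc3, an alpha-arrestin, rose (log2 1.88 ± 0.31, adjusted p = 1.74e-04). Pik3r1 was not called with library size alone (adjusted p = 0.0506).

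Of 27 genes for secreted liver factors, 3 rose and 5 fell, so that 29.6% were called, against 25.2% of all genes. The counts were 9 and 2 with library size alone and 2 and 3 without glucagon 3 and hybrid 4. Inhbe, the activin E subunit, had 36.8, 51.9, 51.2 and 49.9 CPM in hybrid, 13.2, 6.47, 13.2 and 14.7 CPM in glucagon and 51.3, 61.4, 80.5 and 113 CPM in control livers (log2 2.00 ± 0.27, adjusted p = 1.91e-05), and the glucagon livers were the lowest of these. Tsku, tsukushi, rose (log2 1.77 ± 0.24, adjusted p = 2.36e-05). Fst, follistatin (log2 -1.93 ± 0.35, adjusted p = 4.17e-04), and Igfbp1, an IGF-binding protein (log2 -2.80 ± 0.70, adjusted p = 0.00577), fell. Fgf21 had 12.2, 25.2, 36 and 43.3 CPM in hybrid and 15.8, 11.8, 19.4 and 22.04 CPM in glucagon livers, with overlap, and was not called (log2 0.75 ± 0.70, adjusted p = 0.477).

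Cell cycle genes were higher in hybrid livers: 20 of 33 rose and 0 fell, with a median of log2 1.38 (24 rose with library size alone). Mki67, a marker of cycling cells, had 17.02, 37.7, 48.4 and 38.9 CPM in hybrid, 2.98, 2.005, 2.87 and 1.51 CPM in glucagon and 7.701, 20.4, 11.2 and 5.204 CPM in control livers (log2 3.89 ± 0.52, adjusted p = 1.86e-05). The hybrid livers thus exceeded the glucagon livers without overlap, and 3 of them exceeded every control. Birc5, survivin (log2 3.57 ± 0.46, adjusted p = 1.49e-05), Foxm1, a transcription factor of mitosis (log2 3.35 ± 0.50, adjusted p = 6.98e-05), and Top2a, topoisomerase II alpha (log2 3.24 ± 0.49, adjusted p = 7.73e-05), rose as well, and Top2a had 6.53 to 12.3 CPM in hybrid and 0.403 to 1.49 CPM in glucagon livers. Foxm1 shares exons with other genes on its own strand. The summed level of the list was 605, 640.4, 742 and 798 CPM in hybrid and 447, 367, 402 and 480.1 CPM in glucagon livers.

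Of 24 macrophage and Kupffer cell markers tested, 19 rose and 0 fell, with a median of log2 1.20. Clec4f, a lectin of Kupffer cells, had 205, 175, 189 and 135 CPM in hybrid and 68.6, 51.5, 44.1 and 64.5 CPM in glucagon livers (log2 1.62 ± 0.15, adjusted p = 4.04e-07). Cd5l, a secreted macrophage protein, had 138 to 186 CPM in hybrid and 32.8 to 63.9 CPM in glucagon livers (log2 1.78 ± 0.21, adjusted p = 5.49e-06), and Csf1r, the receptor for macrophage growth factor (log2 1.19 ± 0.18, adjusted p = 9.60e-05), and C1qa, a complement subunit (log2 1.10 ± 0.17, adjusted p = 1.18e-04), rose too. The summed level of the markers, without TMM factors, was 2157, 2503, 1893 and 2063 CPM in hybrid and 806, 727, 883 and 864 CPM in glucagon livers. In control livers it was 961, 2486, 851 and 2075 CPM. None of the markers found in the files was at 0 in the 8 libraries. Of 18 endothelial markers 1 rose and 1 fell, and of 10 cholangiocyte markers 1 rose. Of 12 lymphocyte and granulocyte markers 3 rose, and of 4 markers of exocrine pancreas 1 rose. The shares called in these lists were 11.1%, 10%, 25% and 25%, none above the 25.2% of all genes. The endothelial gene that rose was not called with replicate number as a block or without glucagon 1, 2 or 4 or hybrid 2 or 4, the one that fell was not called without glucagon 1 or hybrid 2 or 3, the lymphocyte count was 1 without glucagon 1, 2 or 4 or hybrid 1 or 2, and the pancreas count was 4 without glucagon 3 and 2 without hybrid 1 or both glucagon 3 and hybrid 4. Of 17 stellate and fibroblast markers 0 were called in edgeR, where 1 had an unadjusted p under 0.05, and 1 by DESeq2. Summed erythroid markers, without TMM factors, were 43.4 to 76.8 CPM in hybrid and 191 to 287 CPM in glucagon livers. Of 3 tested, 1 was called (33.3%), lower.

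Interferon-induced genes gave the highest median of all lists, log2 2.12, with 25 of 29 members higher and 0 lower. Oas2, an antiviral RNA sensor, had 31.97, 18.1, 30.04 and 32.1 CPM in hybrid and 6.33, 7.44, 5.17 and 9.46 CPM in glucagon livers (log2 1.99 ± 0.39, adjusted p = 8.77e-04). Gbp3, a guanylate-binding protein (log2 3.37 ± 0.64, adjusted p = 6.76e-04), Ddx60 (log2 2.12 ± 0.47, adjusted p = 0.00226) and Parp14 (log2 1.76 ± 0.35, adjusted p = 0.00104) rose as well. The list summed to 1779.8, 1190.1, 1827 and 1353 CPM in hybrid, 643, 601, 470 and 733 CPM in glucagon and 626, 3922, 874 and 690.3 CPM in control livers, so hybrid and glucagon livers did not overlap, while control 2 exceeded them all. The count of members called became 14 without glucagon 3 and 11 without glucagon 3 and hybrid 4. The macrophage markers above, like the cell cycle and interferon genes, were higher in hybrid than in glucagon livers. Among hybrid livers the orders differed. Hybrid 2 had the highest macrophage sum (2503 CPM, without TMM factors) and the lowest interferon sum (1190.1 CPM). The part of macrophages in the cell cycle and interferon results was not tested.

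Of 30 acute phase genes, 4 rose and 3 fell, so that 23.3% were called, against 25.2% of all genes. The counts were 8 and 1 with library size alone, 2 and 2 without hybrid 2, 5 and 1 without hybrid 4, and 3 and 1 without glucagon 3 and hybrid 4. Lcn2, lipocalin 2, had 155, 582, 36.4 and 61.97 CPM in hybrid and 5.67, 2.59, 8.76 and 10.97 CPM in glucagon livers (log2 4.92 ± 1.17, adjusted p = 0.00423), and controls spread over 3.42, 122, 1.96 and 98.2 CPM. Saa2, serum amyloid A, had 236, 537, 10.01 and 19.3 CPM in hybrid and 15.9, 4.14, 6.32 and 20.4 CPM in glucagon livers, which overlap, and its call (log2 4.11 ± 1.15, adjusted p = 0.0120) was lost without hybrid 2 (adjusted p = 0.0592). Cd14, the endotoxin coreceptor, rose (log2 1.63 ± 0.42, adjusted p = 0.00661), and Socs3, a feedback inhibitor of cytokine signalling, fell (log2 -1.32 ± 0.34, adjusted p = 0.00793), with glucagon 3 inside the hybrid range.

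Ranked by size among called genes of at least 20 CPM without overlap, the genes most raised were Cyp3a16, Cyp3a44, Lcn2, Cxcl14, Cyp4a31, Cyp17a1, Stat5a and Cyp4a14. Stat5a (chr11:100859351-100885169, plus strand), a transcription factor of growth hormone signalling, had 39.1, 43.9, 43.2 and 46.6 CPM in hybrid and 4.18, 3.04, 4.89 and 2.72 CPM in glucagon livers (log2 3.53 ± 0.18, adjusted p = 1.65e-10); it overlaps Stat3 on the other strand. Cxcl14, a chemokine, had 18.5, 280.5, 20.7 and 110.1 CPM in hybrid and 6.45, 5.95, 6.54 and 4.13 CPM in glucagon livers (log2 4.21 ± 0.85, adjusted p = 0.00108). Cyp4a31, a relative of Cyp4a14, had 36.3 to 61.3 CPM in hybrid and 1.42 to 4.43 CPM in glucagon livers (log2 4.12 ± 0.48, adjusted p = 4.16e-06). In all 3, the lowest hybrid liver exceeded the highest glucagon liver, which the rule of this ranking required.

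Under the same limits of level and overlap, the genes most lowered were Inmt, Tas1r2, Nr4a3, Car3, Btbd19, Elovl3, Hsd17b6 and Klf4. Inmt (chr6:55170626-55175043, minus strand), a methyltransferase of indole amines, had 40.7, 28.4, 49.8 and 49.5 CPM in hybrid and 1743, 2039, 1921 and 1912 CPM in glucagon livers (log2 -5.50 ± 0.57, adjusted p = 1.01e-06). Tas1r2 (chr4:139653538-139670280, plus strand), a subunit of the sweet taste receptor, had 2.12, 0.602, 2.62 and 1.96 CPM in hybrid and 45.2, 96.3, 83.8 and 85.8 CPM in glucagon livers (log2 -5.44 ± 0.40, adjusted p = 1.69e-08). It had 0.123 to 0.262 CPM in T3 and 0 to 0.294 CPM in control livers, at or under the level of 3 counts, and it shares exons with Gm21969 on its own strand. Car3, carbonic anhydrase 3, had 80.3, 83.1, 242 and 287 CPM in hybrid and 6509.8, 4386, 5956 and 3661 CPM in glucagon livers (log2 -4.89 ± 0.56, adjusted p = 3.82e-06). Btbd19 (chr4:117119219-117125725, minus strand) had 5.87, 4.98, 5.86 and 6.44 CPM in hybrid and 134, 174, 161 and 154 CPM in glucagon livers (log2 -4.75 ± 0.25, adjusted p = 1.65e-10), and with 5.57 to 6.12 CPM in combination, 4.6 to 6.07 CPM in T3 and 4.12 to 11.3 CPM in control livers it was high in the glucagon livers of the 5 groups. Klf4, a zinc finger transcription factor, had 1.87 to 3.67 CPM in hybrid and 45.1 to 68.5 CPM in glucagon livers (log2 -4.40 ± 0.36, adjusted p = 6.63e-08). Hsd17b6, a steroid dehydrogenase, had 4.71 to 45.2 CPM in hybrid and 234 to 567 CPM in glucagon livers (log2 -4.57 ± 0.69, adjusted p = 7.62e-05).

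The same 4 glucagon libraries also serve the combination, so its changes are set beside those of the hybrid without a measure of likeness, and the direct test of hybrid against combination says where the pair differs. That test called 4 of 12907 genes (0.031%), 4 lower and 0 higher in hybrid livers; 891 genes, or 6.9%, had an unadjusted p under 0.05, and DESeq2 called 28. The levels of 3 of the 4 are given here. Arrdc3 (chr13:80883384-80896042, plus strand) had 27.3, 16.2, 18.8 and 16.2 CPM in hybrid, 97.2, 107, 146 and 103 CPM in combination and 5.79, 3.36, 8.05 and 4.03 CPM in glucagon livers. It rose over glucagon by log2 1.88 ± 0.31 with the hybrid and by log2 4.41 ± 0.33 with the combination, and the difference of -2.53 ± 0.30 was called (adjusted p = 7.65e-04).

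Gprin3 and 8430408G22Rik, also called, were named after their values were seen. Gprin3 (chr6:59347226-59426294, minus strand) had 6.797, 7.06, 6.41 and 6.81 CPM in hybrid, 27, 15.9, 21.4 and 19.95 CPM in combination and 8.296, 7.11, 4.74 and 5.74 CPM in glucagon livers (hybrid over combination -1.64 ± 0.25, adjusted p = 0.00980). 8430408G22Rik, named Depp1 in GENCODE M21 (chr6:116650609-116652794, plus strand), had 14.95, 3.23, 7.94 and 9.52 CPM in hybrid, 49.6, 72.03, 59.99 and 143 CPM in combination and 13.2, 6.27, 8.98 and 4.23 CPM in glucagon livers (-3.18 ± 0.46, adjusted p = 0.00646). For all 3, the combination livers stood above the hybrid and glucagon livers, and so did every control liver. Mean levels in combination, T3 and control livers were 113, 54.8 and 108.8 CPM for Arrdc3, and 21.05, 20.99 and 27.4 CPM for Gprin3. For 8430408G22Rik they were 81.1, 104.7 and 247 CPM. Leaving out 1 library left 1 to 5 genes called. Arrdc3 kept its call under every alternative run. Gprin3 lost it without combination 1 or hybrid 2, 3 or 4 (adjusted p = 0.0527 to 0.0632) and with replicate number as a block (0.0528), 8430408G22Rik without hybrid 3 or 4 (0.0531 to 0.0622), and both without glucagon 3 and hybrid 4 (0.0539 for each).

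No other gene named passed the test between hybrid and combination livers, and 95% intervals say how large a difference the data allow. Nr4a3 changed by log2 -5.17 ± 0.35 with the hybrid and -4.97 ± 0.35 with the combination, and the difference had an interval of -0.87 to 0.47. Stat5a changed by 3.53 ± 0.18 and 3.61 ± 0.18, with an interval of -0.41 to 0.24 for the difference. Cyp17a1 had -0.87 to 0.45, Dio1 -0.87 to 0.38 and Elovl3 -1.16 to 0.27 as intervals of the log2 difference, hybrid over combination. Of 105 named genes called against glucagon, 26 had a single interval off 0, and for 25 of these, all but Arrdc3, the adjusted test missed its threshold. Among the 25 were Saa2 (0.94 to 5.50, adjusted p = 0.612), Birc5 (0.21 to 1.87, 0.651), Inhbe (0.30 to 1.36, 0.612), Car3 (-2.59 to -0.56, 0.612), G6pc (0.42 to 1.35, 0.337), Tat (0.34 to 1.22, 0.464), Pck1 (0.24 to 1.39, 0.612), Ppargc1a (0.15 to 0.91, 0.626), Inmt (-2.84 to -0.82, 0.427) and Cyp7a1 (-1.84 to -0.04, 0.711). By library, G6pc had 1485, 1237, 1196 and 1144 CPM in hybrid and 527, 854, 618 and 737 CPM in combination livers, Inmt had 40.7, 28.4, 49.8 and 49.5 CPM in hybrid and 74.4, 98.3, 129 and 296 CPM in combination livers, and Ppargc1a had 18, 25.5, 19.5 and 18.7 CPM in hybrid and 16.9, 15.3, 11.5 and 12.7 CPM in combination livers. None of the 3 overlapped between these groups, but they were picked from the 25 above. The share of all genes without overlap was not worked out for this pair, so the lack of overlap adds nothing to the test.

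**Figure D4:**
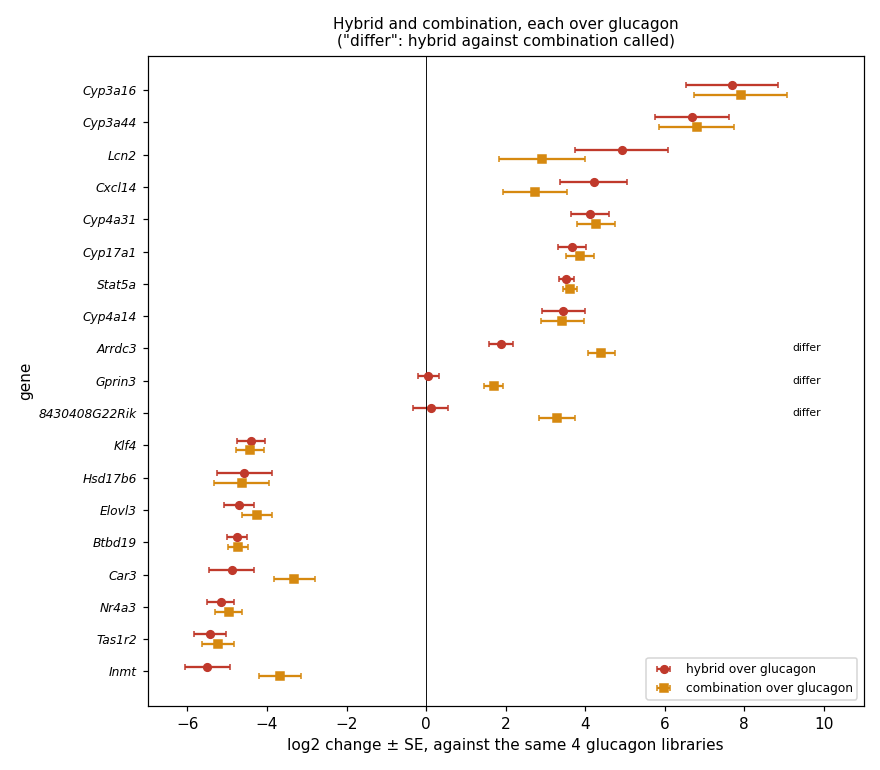
Log2 change ± SE of hybrid over glucagon (circles) and combination over glucagon (squares), both against the same 4 glucagon libraries, for the 16 genes ranked highest and lowest and 3 of the 4 genes called between hybrid and combination. Arrdc3, Gprin3 and 8430408G22Rik are marked as differing and lie lower with the hybrid.

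The change of hybrid over glucagon can be set beside that of T3 over control, which shares no library with it. T3 against control called 2317 genes (18%), 944 higher (7.31%) and 1373 lower (10.6%). It called 1528 without T3 1 and 503 when only the compared groups were fitted. In the main fit 1042 genes were called in both comparisons. Of these, 1003 moved the same way, 30.8% of the hybrid over glucagon calls and 43.3% of the T3 over control calls, and 39 moved oppositely. Over all 12907 genes the changes had Pearson r = 0.546, a description over genes that are not independent. Cyp17a1 rose by 3.66 ± 0.35 in hybrid over glucagon and by 3.72 ± 0.36 in T3 over control, a difference of -0.05 ± 0.45. Dio1 rose by 1.60 ± 0.31 in hybrid over glucagon and by 2.10 ± 0.31 in T3 over control, a difference of -0.50 ± 0.43. Hsd17b6 changed by -4.57 ± 0.69 in hybrid over glucagon and by -4.48 ± 0.70 in T3 over control, a difference of -0.09 ± 0.87. None of these 3 differences was called (adjusted p = 0.508 to 0.965), and their errors leave room for differences of either sign. All T3 libraries were run in a lane of their own, so in T3 over control the lane and the treatment cannot be told apart.

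The difference between the 2 changes was called for 514 genes (3.98%), 239 positive (1.85%) and 275 negative (2.13%), 414 of which were also called in hybrid over glucagon, 224 of them lower and 190 higher there. The 514 became 278 without glucagon 2, 300 without glucagon 4, 332 without T3 1, 295 without T3 2 or T3 4, 288 without hybrid 2, 328 without hybrid 3, 312 without glucagon 3 and hybrid 4, and 1487 without control 3. Among the 514 were 9 of the 21 cyclic AMP targets, 7 to 11 when 1 library was left out, and 7 of the 21 clock genes, 4 without T3 4 or hybrid 2. The 514 also held 5 of the 29 interferon-induced and 5 of the 33 cell cycle genes, but these counts ran over 0 to 15 and 1 to 10 when 1 library was left out, the highest without control 3.

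Control 2 stood apart from the other controls on both of these lists. It also held the most skeletal muscle RNA of the controls. The 20 muscle markers summed to 69.02, 1213, 55.96 and 56.7 CPM in control 1 to 4, without TMM factors. The part of muscle RNA in these results was not tested. The interferon list summed to 1353, 1268, 2203 and 1129 CPM in T3 livers and 626, 3922, 874 and 690.3 CPM in control livers, and the cell cycle list to 598, 499.6, 706 and 567 CPM in T3 livers and 289, 714, 288 and 333 CPM in control livers, so that the other 3 controls lay below every T3 liver. In T3 over control, 1 interferon-induced gene rose and 0 fell, but 21 rose without control 2, and 2 cell cycle genes rose and 1 fell, but 13 rose and 1 fell without control 2. Of the cyclic AMP targets 1 rose and 4 fell, against 4 and 1 without control 2, and the 4 became 2 without control 1 or T3 3 and 1 without T3 2. For sex-biased and drug genes, T3 over control gave 10 of 17 female-biased genes higher, 9 of 23 male-biased genes lower and 16 of 32 drug genes lower, and the difference was called for 0, 1 and 2 of them, or 0 to 1, 1 to 3 and 1 to 3 when 1 library was left out. Of the 16 genes ranked highest and lowest, the difference was called for 8: Stat5a, Cyp4a14, Tas1r2, Nr4a3, Car3, Btbd19, Elovl3 and Klf4. Cyp4a14, Tas1r2 and Car3 lost that call when certain single libraries were left out, with adjusted p up to 0.102 without T3 4, 0.0709 without T3 2 and 0.0815 without T3 2. For Nr4a3 the difference was log2 -5.61 ± 0.75 (adjusted p = 1.63e-04), for Ppargc1a -2.54 ± 0.27 (adjusted p = 1.52e-05), and for Btbd19 -4.40 ± 0.33 (adjusted p = 3.28e-07). Nr4a3 rests on few counts in T3 and control livers (0.262 to 1.104 and 0.214 to 0.628 CPM). For Slc38a2 the difference was -2.49 ± 0.27 (adjusted p = 2.24e-05) and for Per2 -3.01 ± 0.37 (adjusted p = 5.69e-05), while in T3 over control they changed by 0.19 ± 0.19 and 0.54 ± 0.26. Arrdc3 went the other way, higher in hybrid over glucagon and -0.99 ± 0.29 in T3 over control (difference 2.87 ± 0.42, adjusted p = 4.40e-04). Serpina7 fell in both, with -1.65 ± 0.39 in hybrid over glucagon and -4.27 ± 0.45 in T3 over control, and the change was smaller in hybrid over glucagon (difference 2.62 ± 0.58, adjusted p = 0.0146).

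**Figure D5:**
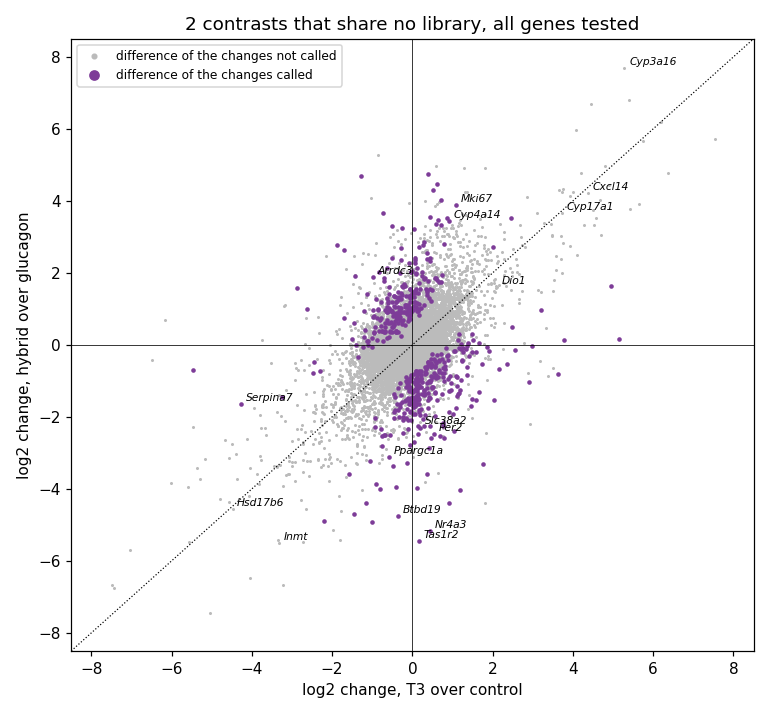
Log2 change of hybrid over glucagon (vertical axis) against that of T3 over control (horizontal axis) for 12907 genes, with the 514 genes whose changes differed in purple and the dotted line at equality. Nr4a3, Tas1r2, Btbd19 and Ppargc1a lie far below the line near 0 on the horizontal axis, while Cyp17a1 and Dio1 lie near the line.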

How the data were processed

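Liver RNA of 20 mice was sequenced. Per the labels' protocols, extraction used a Qiagen kit and library synthesis a Lexogen kit. The authors deposited raw read counts per gene symbol; the submitters' processing notes name HTSeq and the mm10 build. The sources used here name no aligner, annotation, tool version or strand setting, so genes that overlap on opposite strands may share reads. Each library lists 13319 symbols, each with at least 20 counts in some library, so rarer genes are not covered; 12 symbols had turned into dates. Positions came from GENCODE M21 (12113 symbols matched) and promoters from RefSeq (GRCm38.p6).

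In R 4.3.3, edgeR 4.0.16 kept 12907 genes (filterByExpr, minimum count 10, minimum total 15), scaled by TMM and fitted 5 group means to all 20 libraries by quasi-likelihood (degrees of freedom: 15 residual, 5 prior). Biological variation between livers was 27.8% (common dispersion 0.077), and by group it was 22.6% in hybrid, 18.9% in combination, 25.8% in glucagon, 19.2% in T3 and 43.2% in control livers. P values were Benjamini-Hochberg adjusted per comparison. Tests were of hybrid against glucagon, hybrid against combination, T3 against control, and the first minus the third. Alternatives were RLE factors, library size alone, no filter, DESeq2 1.42.0, only the compared groups, replicate number as a block, and libraries left out. On simulated counts for hybrid against glucagon over 12805 genes, 53.1% of 98 genes changed by log2 1 and 91.9% of 99 changed by log2 2 were called, with 6 false among 149 calls. No 2 libraries of a group agreed within sampling noise (chi-square per degree of freedom 24.7 to 64.3).

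Genes were named by rule: up to 8 highest and 8 lowest called genes without overlap and with a mean of 20 CPM or more, the 4 members of smallest p in each list described (all called where 5 or fewer were), up to 4 highest and lowest against the combination, and a panel; a few of these genes are not reported here. The comparison, the 25 gene lists and the 11 marker lists were chosen with earlier results of these data known. Replicate numbers mark sequencing lanes 1 to 4 in all groups but T3, per the labels, and so pair libraries by lane. The correlation of same-numbered hybrid and glucagon libraries about their group means was 0.102, 0.106, -0.248 and -0.0275.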

Additional observations from a re-analysis of the deposited data

Results flagged for a closer look

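In 248 groups of 4 livers, 1 liver stood apart from the other 3 by Dixon's criterion in 21 (8.47%), where chance gives about 5%. Among hybrid livers, hybrid 1 was low for Birc5 (2.88 CPM) and Inhbe (36.8 CPM) and high for Hsd17b6 (45.2 CPM). Hybrid 2 was low for Oas2 (18.1 CPM) and high for Slc7a7 (16.0 CPM), Pik3r1 (77.1 CPM) and Serpina7 (9.69 CPM). Hybrid 3 was high for Ttr (3479.6 CPM) and Nr4a2 (7.13 CPM), and hybrid 4 for Mvk (33.9 CPM) and the skeletal muscle markers (summed 852 CPM). Among glucagon livers, glucagon 1 was high for Plin2 (229 CPM), Thrsp (3443.5 CPM) and Acly (1928 CPM). Glucagon 3 was high for Pdk4 (25.9 CPM), Slc16a7 (71.0 CPM), the endothelial markers (summed 897 CPM) and the skeletal muscle markers (summed 3713 CPM). Glucagon 4 was high for Cyp7a1 (48.8 CPM), Tsku (136 CPM) and Srebf1 (1414 CPM).

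For 31 of 113 named genes tested, hybrid over glucagon differed from T3 over control in the test of the difference (edgeR, adjusted p under 0.05), and the values below are log2 differences of the 2 changes. Among positive differences, cell cycle genes had 2.80 for Mki67, 3.12 for Birc5 and 2.76 for Foxm1, and the others were Stat5a (1.06), Cyp4a14 (2.54), Inhbe (1.91), Arrdc3 (2.87) and Serpina7 (2.62). Among negative ones, the nuclear receptors had -5.61 for Nr4a3, -3.53 for Nr4a2 and -3.19 for Nr4a1, and Ppargc1a had -2.54, Pde4d -1.81 and Irs2 -2.61. Clock genes had -3.01 for Per2, -1.81 for Per1, -1.77 for Nfil3 and -1.99 for Cry2. Stress response genes had -2.40 for Chac1, -1.80 for Ddit4 and -1.53 for Ppp1r15a. Metabolic genes had -1.45 for Pck1, -1.10 for Tat, -1.86 for Lpin1, -2.49 for Slc38a2, -3.25 for Elovl3 and -2.70 for Car3. Klf4 had -3.24, Socs3 -1.89 and Btbd19 -4.40. Tas1r2 had -5.60, but its T3 and control livers are at or under the level of 3 counts a library, so the size of that value is uncertain. Of the 31 genes, 20 kept the call in every alternative run; Mki67, Foxm1, Cyp4a14, Socs3, Pck1, Ddit4, Tat, Irs2, Per1, Car3 and Tas1r2 lost it without at least 1 library, and Foxm1 and Socs3 did so without control 2 (adjusted p = 0.0606 and 0.0542).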

How the results depend on the processing

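Against glucagon, the 3255 genes called stayed within 1.5 times under RLE factors (3284), no filter (3237), DESeq2 (3565), only the compared groups (4162), leaving out 1 library (2627 to 2768) and leaving out glucagon 3 and hybrid 4 (2228). Library size alone, chosen after seeing the data, gave 5408. With replicate number (sequencing lane) as a block the paired fit called 2965, and it ended no call of a named gene other than Sdhc, Ndufs7, Rapgef3, Scd1 and, against the combination, Gprin3. Hybrid against combination (4 genes) gave 28 with DESeq2, 16 with only the compared groups, 6 with library size alone, 1 without glucagon 3 and hybrid 4, and 1 to 5 leaving out 1 library. T3 against control (2317) gave 503 with only the compared groups and 1528 to 3179 leaving out 1 library, the highest without control 3. The difference of the 2 changes (514) gave 829 with DESeq2, 281 with only the compared groups, 312 without glucagon 3 and hybrid 4, 768 with library size alone, and 278 (without glucagon 2) to 1487 (without control 3) leaving out 1 library. With only the compared groups, 22 genes of amino acid catabolism, 12 of the tricarboxylic acid cycle and 6 amino acid carriers were lower, and 7 secreted factors were higher. Of 115 named genes 105 were called, 93 kept the call in all 15 alternatives, 12 lost it in at least 1, and 0 reversed. Of the 10 not called, Cpt1a was called with library size alone and Uqcrfs1 with DESeq2. The causes of these shifts were not tested. Depth limits genes near 3 counts a library (0.163 to 0.280 CPM in hybrid and 0.179 to 0.302 CPM in glucagon libraries), and doses and collection time are not known. With 4 livers a group, 53.1% of changes of log2 1 were recovered in simulated counts. Only 98 genes changed by log2 1 and 99 by log2 2 there, among 12805. That is a smaller share than the 25.2% called here, so recovery in these data can differ.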
